A study of Sus scrofa with 6 samples.

Results

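The genes described here bind or carry thyroid hormone in the brain. Of 8 genes looked for among the 18225 listed, 3 had a row under a matched identifier: CRYM (ENSSSCG00000007849), SLCO1C1 (ENSSSCG00000000585) and TTR (ENSSSCG00000023686). The other 5, the deiodinases DIO1, DIO2 and DIO3 and the receptors THRA and THRB, were not analysed here. Each symbol was taken from the identifier with the highest mean.

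The series holds brain transcriptomes of 3 Rongchang pigs, a domesticated Chinese breed, and 3 wild boars, all 210 days old, with 1 library per animal. The labels give no treatment, genotype or sex, and no brain region. The title of the series asks about a difference in immune response between domesticated and wild animals, and the comparison here is the same contrast read in the thyroid hormone genes. The labels do not say whether the animals of a breed were related or kept together, and p-values reflect only how these libraries vary.

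Thyroid hormone reaches the brain mostly as the prohormone thyroxine, which membrane transporters carry across the blood-brain barrier. Deiodinases in glia and neurons then turn thyroxine into the active hormone triiodothyronine or inactivate it, and nuclear receptors bound to DNA with retinoid X receptors read the active form. CRYM, also called mu-crystallin, binds triiodothyronine in the cytosol and is also an enzyme, ketimine reductase. In brain it is made mainly by neurons. SLCO1C1, also called OATP1C1, is a high-affinity thyroxine transporter of the blood-brain barrier, best known from rodents, where brain endothelium and astrocytes carry it. TTR, or transthyretin, binds thyroxine in blood and cerebrospinal fluid, and within the brain it is made mostly by the choroid plexus.

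Values are deposited FPKM (fragments per kilobase of transcript, relative to all mapped fragments), which scale for transcript length and so allow levels of different genes to be compared. Summed FPKM ran from 568921 to 603634 in Rongchang libraries and from 579069 to 687359 in wild boar libraries, and read depth is unknown. Mitochondrially encoded genes took 30.0% to 45.2% of FPKM in Rongchang libraries and 41.0% to 46.8% in wild boar libraries, with the lowest share in Rongchang 3. Fold changes are Rongchang minus wild boar of log2(FPKM + 1), a scale that shrinks the change of a gene at low FPKM. A gene was tested with limma if it reached at least 1 FPKM in at least 3 libraries, and 13152 genes did, including CRYM, SLCO1C1 and TTR. TTR met that minimum through exactly 3 libraries. The median gene tested was higher in Rongchang by 0.13 log2 units, and 77.9% of genes had a fold change above 0. At an adjusted p under 0.05, 0.0076% of genes (1 gene, without a symbol) were higher in Rongchang and 0% were lower. At an unadjusted p under 0.05, 5.42% were higher and 0.578% lower. Genes of neurons were abundant in both breeds, with the synaptic gene SNAP25 at 988 ± 187 FPKM in Rongchang and 980 ± 170 FPKM in wild boar (SD, n = 3 each).

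CRYM was by far the most abundant of the 3 genes, and its libraries did not overlap between the breeds. It stood at 138, 134 and 195 FPKM in Rongchang 1, 2 and 3, against 108, 95.6 and 77.9 FPKM in wild boar 1, 2 and 3. Every Rongchang library lay above every wild boar library, and the highest and the lowest values were both in animals numbered 3. Such a separation with Rongchang higher was seen in 11.4% of all genes tested. The mean was 156 ± 34.2 FPKM in Rongchang and 93.9 ± 15.2 FPKM in wild boar (SD, n = 3 each), a ratio of means of 1.66. The log2 fold change was 0.72 ± 0.22 (SE), with a 95% interval from 0.21 to 1.22, or 1.16-fold to 2.33-fold. Relative to the median gene the fold change was 0.58. CRYM did not pass the threshold over all genes (limma, adjusted p = 0.784, unadjusted p = 0.0111). An exact two-sided permutation test gave p = 0.1, which is the smallest p that 3 against 3 libraries allow. By size of fold change CRYM lay at percentile 98.6 of the genes tested, and by unadjusted p it ranked 186 of 13152.

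With the breeds apart, leaving out 1 library could change the size of the CRYM difference but not its direction. Without Rongchang 3, the highest, the log2 fold change was 0.54 (unadjusted p = 0.0335), and without wild boar 3, the lowest, it was 0.59 (unadjusted p = 0.0533). Within pairs of the same animal number, Rongchang over wild boar was 1.28 for number 1, 1.41 for number 2 and 2.51 for number 3. Given that separation, any pairing would give ratios above 1. With mitochondrially encoded genes left out and the libraries rescaled, the log2 fold change was 0.69 (limma, adjusted p = 0.892).

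**Figure D1:**
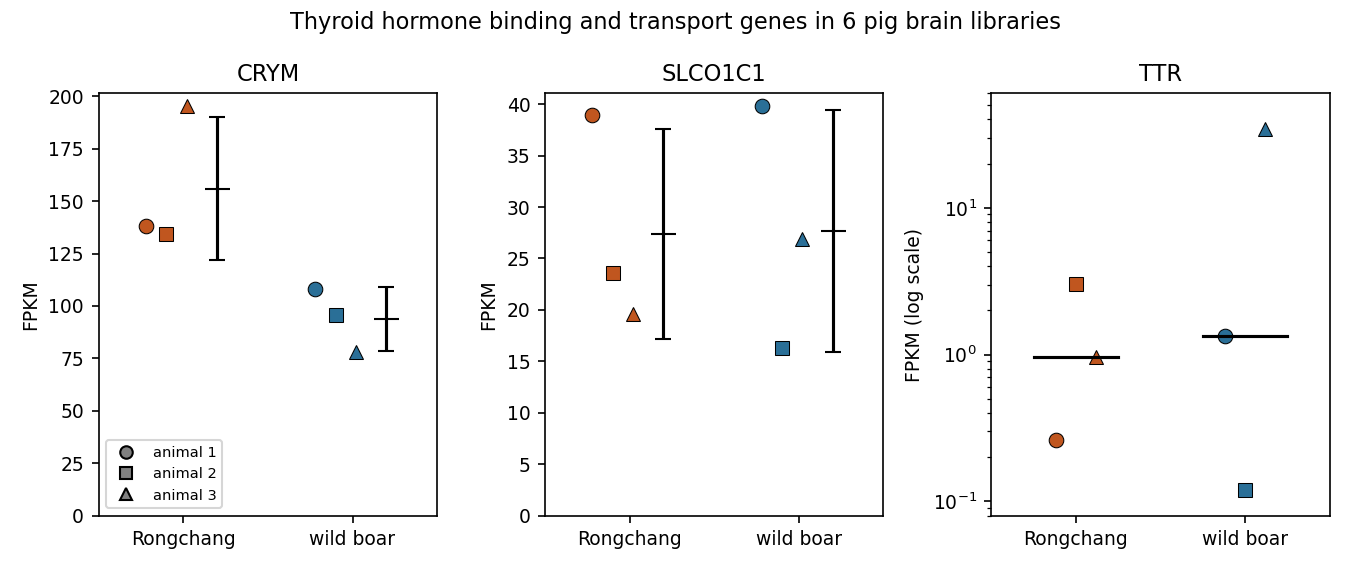
FPKM of CRYM, SLCO1C1 and TTR in each library, by breed, with marker shape for the animal number; bars beside the points in the CRYM and SLCO1C1 panels are the mean ± SD of 3 libraries, and lines in the TTR panel, which has a log axis, are medians. CRYM lies at 134 to 195 FPKM in Rongchang and at 77.9 to 108 FPKM in wild boar, while the other 2 genes overlap between the breeds and 1 wild boar stands alone at 34.2 FPKM of TTR.

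Neuron content was read from 9 neuron markers with a row, since in bulk tissue fewer cells of a type and less RNA per cell cannot be told apart. Their summed level ran from 2213 to 2966 FPKM in Rongchang libraries and from 2066 to 2882 FPKM in wild boar libraries, with 0 of the 9 called, and none of them was at 0 in any library. Their mean log2(FPKM + 1) was 7.59 ± 0.17 in Rongchang and 7.51 ± 0.26 in wild boar (SD, n = 3 each; exact two-sided permutation test, p = 0.6). Set against that mean within each library, CRYM stood at −0.31, −0.68 and 0.03 log2 units in Rongchang 1, 2 and 3, against −0.47, −1.16 and −1.23 in wild boar 1, 2 and 3. On this relative scale Rongchang 2 lay below wild boar 1, so the breeds overlapped. The difference of means was 0.63 log2 units (exact two-sided permutation test, p = 0.2). Across the 6 libraries CRYM correlated with the 9 markers at a median Pearson r of 0.13, from −0.48 for MAP2 to 0.44 for STMN2, over points that share library scaling.

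CRYM is also unevenly spread over brain regions in mammals, and the region sampled is not stated. Markers of cortical and hippocampal projection neurons, 10 with a row, summed to 68.8 to 99.6 FPKM in Rongchang and 62.8 to 110 FPKM in wild boar libraries, highest in wild boar 2 and then Rongchang 2. Of the 9 tested, 5 had a fold change above 0, and the median log2 fold change was 0.06 beside 0.13 over all genes. The lowest unadjusted p among them was that of the nuclear receptor NR4A2, at 8.76 ± 0.881 FPKM in Rongchang and 12.6 ± 2.62 FPKM in wild boar (log2 fold change −0.47; limma, adjusted p = 0.789). Striatal markers, 5 with a row, summed to 30.4 to 34.7 FPKM in Rongchang libraries and 25 to 30.1 FPKM in wild boar libraries, with the lowest Rongchang library just above the highest wild boar library. Of the 3 striatal markers tested, 0 were called. The dopamine signalling gene PPP1R1B stood at 22.8, 21.1 and 28.4 FPKM in Rongchang 1, 2 and 3, against 19, 21.7 and 18.9 FPKM in wild boar 1, 2 and 3, so Rongchang 3 was highest for this gene as for CRYM. The phosphodiesterase PDE10A was lowest in Rongchang 3, at 4.90, 7.79 and 3.53 FPKM in Rongchang 1, 2 and 3, against 5.58, 6.54 and 4.48 FPKM in wild boar 1, 2 and 3 (log2 fold change −0.07). The adenosine receptor ADORA2A, which was below the minimum for testing, did not overlap between the breeds, at 0.909 to 1.27 FPKM in Rongchang and 0.584 to 0.758 FPKM in wild boar. Of the genes tested, 11.4% showed such a separation with Rongchang higher. The receptor DRD2 was at most 0.317 FPKM in any library. Hypothalamic and pituitary markers, 6 with a row, summed to at most 6.40 FPKM, a value reached in Rongchang 3, of which AVP made up 5.59 FPKM. Cerebellar markers, 5 with a row, summed to 9.12 to 12.2 FPKM in Rongchang and 8.42 to 12.4 FPKM in wild boar libraries. The part of region makeup in the CRYM difference was not tested.

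SLCO1C1 had nearly equal means in the breeds and a wide spread within each. It stood at 38.9, 23.5 and 19.6 FPKM in Rongchang 1, 2 and 3, against 39.8, 16.3 and 26.9 FPKM in wild boar 1, 2 and 3. The libraries numbered 1 of both breeds were the highest, 1 FPKM or less apart, and wild boar 2 was the lowest. The mean was 27.4 ± 10.2 FPKM in Rongchang and 27.7 ± 11.8 FPKM in wild boar (SD, n = 3 each). The log2 fold change was 0.01 ± 0.35 (SE; limma, adjusted p = 0.994), with a 95% interval from −0.79 to 0.82, or 0.576-fold to 1.76-fold. The sign had no support: the fold change was −0.16 with library medians set equal, and −0.31 without wild boar 2.

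SLCO1C1 was then set beside 9 brain endothelium markers. Their summed level ran from 69.4 to 82.1 FPKM in Rongchang libraries and from 73 to 86.5 FPKM in wild boar libraries, and the libraries numbered 1 were again the highest of each breed. Of the 9 markers, 8 correlated with SLCO1C1 above 0 across the 6 libraries, with a median r of 0.66, over points that share library scaling. The highest was the angiopoietin receptor TEK at 0.93. TEK, named for that r, stood at 4.68, 2.49 and 2.93 FPKM in Rongchang 1, 2 and 3, against 4.74, 2.51 and 3.40 FPKM in wild boar 1, 2 and 3. That its libraries numbered 1 were the highest follows from that choice. The endothelial receptor TIE1 went the other way, at r = −0.54. This order of libraries was not particular to endothelium. Oligodendrocyte markers, 6 with a row, summed to 2183, 1781 and 1919 FPKM in Rongchang 1, 2 and 3. In wild boar 1, 2 and 3 they summed to 2313, 1367 and 1790 FPKM. There too the libraries numbered 1 were the highest of each breed, and wild boar 2 was the lowest. For markers of other cell types no count of correlations with SLCO1C1 was made. Relative to the mean of the 9 markers, SLCO1C1 stood at 2.21, 1.76 and 1.58 log2 units in Rongchang 1, 2 and 3, against 2.16, 1.16 and 1.78 in wild boar 1, 2 and 3. The difference of means was 0.15 log2 units (exact two-sided permutation test, p = 0.7), and it was −0.12 without wild boar 2 and 0.38 without wild boar 1.

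**Figure D2:**
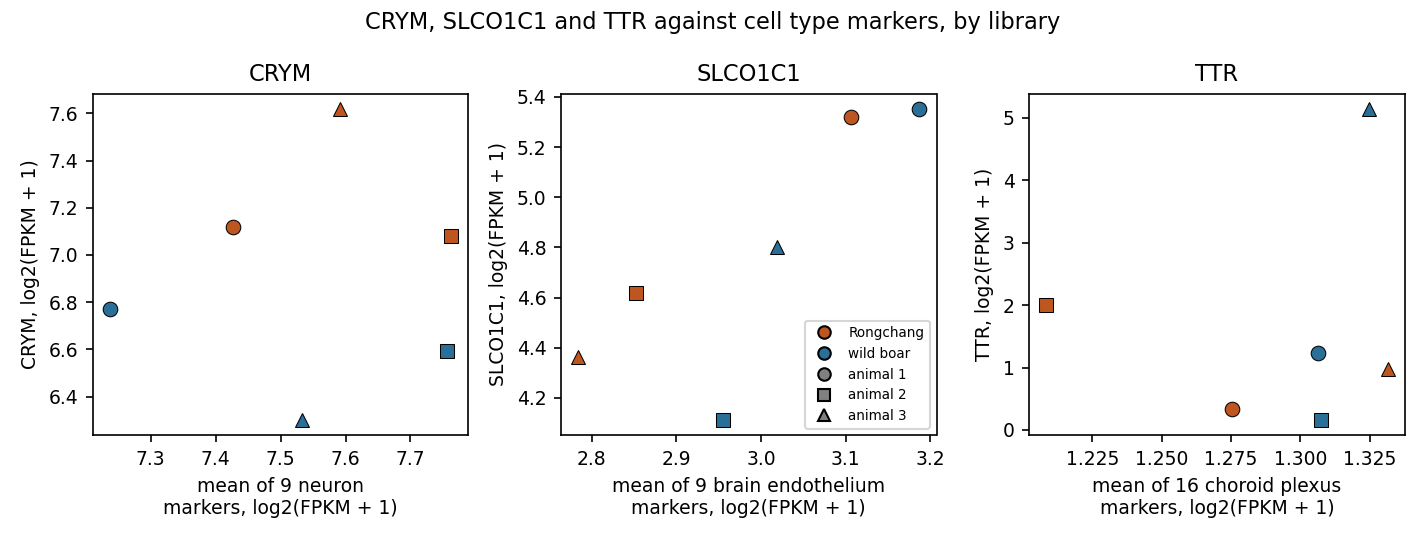
Level of CRYM, SLCO1C1 and TTR, each in log2(FPKM + 1), against the mean log2(FPKM + 1) of 9 neuron, 9 brain endothelium and 16 choroid plexus markers in the same library; colour marks the breed and shape the animal number. The SLCO1C1 points numbered 1 lie together at the upper right. The TTR point of wild boar 3 lies far above the rest, at a choroid plexus marker mean of 1.32, within the range of the other libraries. Of the 16 choroid plexus markers, 9 average under 1 FPKM.

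TTR was low in 5 libraries and high in 1. It stood at 0.264, 3.01 and 0.96 FPKM in Rongchang 1, 2 and 3, against 1.34, 0.12 and 34.2 FPKM in wild boar 1, 2 and 3. Wild boar 3 was the highest and wild boar 2 the lowest of all 6, so the wild boar libraries enclosed the Rongchang ones, and the highest value was 285 times the lowest. The medians were 0.96 FPKM in Rongchang and 1.34 FPKM in wild boar. The log2 fold change was −1.07 ± 1.13 (SE; limma, adjusted p = 0.869), with a 95% interval from −3.67 to 1.53. Its sign was set by wild boar 3: without that library the fold change was 0.41 (limma, adjusted p = 0.982).

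Of the 16 choroid plexus markers with a row, 6 were highest in wild boar 3, against 1 to 3 in each other library. None showed a step there of the size seen for TTR, and 9 of the 16 averaged under 1 FPKM. The list named 24 markers, and those without a row, such as FOLR1, KCNE2 and CLDN2, do not enter the sums. The 16 markers summed to 76.2 to 101 FPKM in Rongchang libraries and 81.3 to 103 FPKM in wild boar libraries. Wild boar 3 was at 89.7 FPKM, and 0 of the 7 markers tested were called. Most of that sum was ENPP2, which oligodendrocytes also make, and the coagulation factor F5. The potassium channel KCNJ13 was at 0.597 FPKM in wild boar 3, against 0.441 to 0.873 FPKM in the other 5 libraries. The chloride channel protein CLIC6 was at 0.0453 FPKM in wild boar 3, with its highest value, 0.325 FPKM, in wild boar 2. The 6 markers highest in wild boar 3 were led by SOSTDC1, a secreted BMP and WNT antagonist, at 3.76 FPKM in wild boar 3, against 1.69 to 2.98 FPKM in the other 5 libraries (r with TTR 0.75 over 6 libraries). STEAP1 was at 0.970 FPKM in wild boar 3 and at most 0.874 FPKM elsewhere, WFIKKN2 at 0.688 and at most 0.625 FPKM, and SLC4A5 at 0.149 and at most 0.108 FPKM. The transcription factor OTX2 and the membrane protein TMEM72, at 0.109 and 0.113 FPKM in wild boar 3, were listed at 0 in 3 and 4 of the other libraries. Among the 7 tested, TRPM3, SLC13A4 and MSX1 were instead lowest in wild boar 3, at 1.85, 1.07 and 1.13 FPKM. Their r with TTR was −0.39, −0.95 and −0.77. Over the 16 markers the median r with TTR was 0.02, with 9 above 0. The part of choroid plexus tissue in the TTR value was not tested. Relative to the mean of the 16 markers, TTR stood at −0.94, 0.8 and −0.36 log2 units in Rongchang 1, 2 and 3, against −0.08, −1.14 and 3.81 in wild boar 1, 2 and 3. The difference of means was −1.03 log2 units (exact two-sided permutation test, p = 0.7), and it was 0.45 without wild boar 3, −2.03 without wild boar 2 and −2.51 without both libraries numbered 2. Ependymal markers, 4 with a row, summed to 3.91 FPKM in wild boar 3, within the 3.54 to 4.94 FPKM of the other libraries.

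TTR is also a plasma protein made in liver, and blood and liver transcripts were read in the same libraries as a description. Plasma carries TTR as protein, which RNA libraries do not measure, so these levels cannot show the source of the TTR transcript. The albumin transcript ALB stood at 3.05, 3.32 and 3.03 FPKM in Rongchang 1, 2 and 3, against 3.94, 3.27 and 4.07 FPKM in wild boar 1, 2 and 3. Wild boar 3 was the highest for ALB, just ahead of wild boar 1. RBP4, the retinol carrier that binds TTR in plasma, stood at 29.1, 27.6 and 49.5 FPKM in Rongchang 1, 2 and 3, against 41.3, 33.9 and 36 FPKM in wild boar 1, 2 and 3. The library with the most TTR was in the middle of the range for RBP4. The red cell transcript HBB was at 137, 66.9 and 189 FPKM in Rongchang 1, 2 and 3, against 273, 57.7 and 212 FPKM in wild boar 1, 2 and 3, lowest in the libraries numbered 2.

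**Figure D3:**
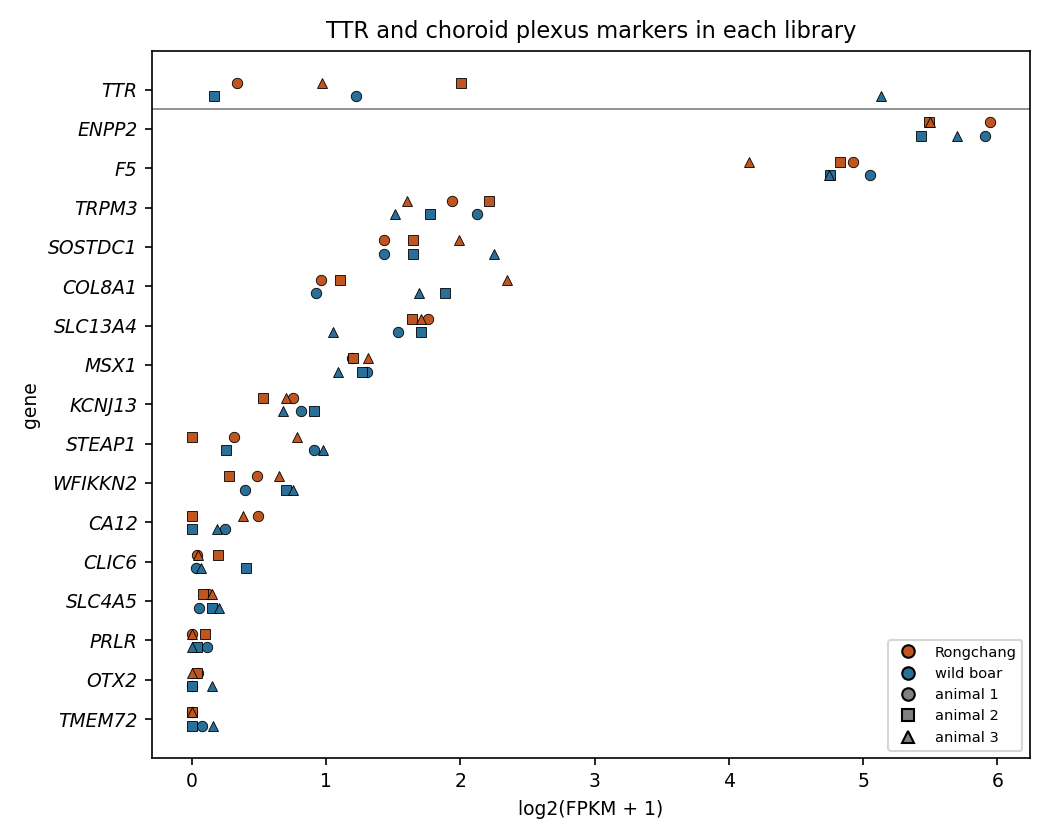
TTR, above the line, and 16 choroid plexus markers, ordered by mean level, in log2(FPKM + 1); each gene has its 3 Rongchang libraries above its 3 wild boar libraries, and shape gives the animal number. TTR of wild boar 3, from 34.2 FPKM, lies apart from the other 5 libraries, and no marker shows a gap of that size. Of the 16 markers, 9 average under 1 FPKM.

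For each gene the 3 genes with the most similar pattern were looked up among 7506 genes with a symbol and a mean of at least 2 FPKM, by Pearson r of log2(FPKM + 1) over the 6 libraries. With 6 points, high values are common in so many genes. CRYM was closest to the Mediator subunit MED27, the anaphase-promoting complex subunit CDC16 and the ribosome assembly factor UTP25, with r from 0.985 to 0.986, and 30 genes reached 0.95. SLCO1C1 was closest to the lysosomal membrane gene LAMP2 (0.978), the endosomal GTPase RAB22A (0.978) and the cohesin subunit STAG2 (0.966), with 8 genes at 0.95 or above. LAMP2 stood at 88.2, 65.1 and 62 FPKM in Rongchang 1, 2 and 3, against 87.2, 49.7 and 65.8 FPKM in wild boar 1, 2 and 3. No gene reached 0.95 with TTR, where 0 of 7506 did. Its nearest were the ubiquitin-conjugating enzyme variant UBE2V2 (0.947), the natriuretic peptide precursor NPPB (0.939) and the cilia gene CFAP52 (0.931).

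The wider pathway was read through 5 lists of 79 named genes, of which 52 had a row and 43 were tested. None of the 43 was called (0 in limma, lowest adjusted p = 0.789), and at an unadjusted p under 0.05 there were 0 higher and 1 lower. Of the 43, 28 had a fold change above 0 (65.1%, beside 77.9% of all genes) and the median was 0.08, beside 0.13 over all genes.

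Among other thyroid hormone transporters, 6 of 8 were tested, 3 lay above 0 and 3 below, and their median log2 fold change was −0.01. The aromatic amino acid transporter SLC16A10, or MCT10, stood at 2.36, 3.66 and 1.46 FPKM in Rongchang 1, 2 and 3, against 1.29, 2.22 and 1.36 FPKM in wild boar 1, 2 and 3, so the breeds overlapped (log2 fold change 0.38). SLCO1A2, an organic anion transporter of brain endothelium in humans, averaged 6.26 ± 1.30 FPKM in Rongchang and 7.13 ± 1.18 FPKM in wild boar (−0.17). SLCO3A1 averaged 5.53 ± 0.707 FPKM in Rongchang and 5.15 ± 0.65 FPKM in wild boar (0.08). SLC3A2, the heavy chain of the large amino acid transporters and the most abundant gene of the list, averaged 38.9 ± 4.32 FPKM in Rongchang and 41.9 ± 11 FPKM in wild boar (−0.08).

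All 17 receptor partners and coregulators with a row were tested, and 14 lay above 0 but only 5 above the median gene, with fold changes from −0.14 to 0.27. The co-repressor deacetylase HDAC3 had the lowest p, at 14.5, 13.2 and 16.7 FPKM in Rongchang 1, 2 and 3, against 11.9, 13.3 and 11.6 FPKM in wild boar 1, 2 and 3 (log2 fold change 0.25). Its breeds overlapped by the narrow margin of Rongchang 2 below wild boar 2. TBL1XR1, which joins HDAC3 in the co-repressor complex, averaged 2.47 ± 0.927 FPKM in Rongchang and 1.86 ± 0.749 FPKM in wild boar (0.27). The arginine methyltransferase coactivator CARM1 averaged 10.7 ± 0.801 FPKM in Rongchang and 9.66 ± 0.95 FPKM in wild boar (0.13). RXRB, a partner of the hormone receptors and the most abundant gene of the list, averaged 24.3 ± 3.89 FPKM in Rongchang and 21.6 ± 2.78 FPKM in wild boar (0.16).

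Of the genes known in rodent brain to respond to thyroid hormone, 11 were tested, with 4 above 0 and 7 below. Over all genes tested, 77.9% lay above 0. The count takes no account of whether the hormone raises or lowers a gene. ALDH1A1, which makes retinoic acid, had the lowest p of any of the 43 pathway genes. It stood at 11.4, 9.60 and 8.90 FPKM in Rongchang 1, 2 and 3, against 22.9, 11.6 and 19.3 FPKM in wild boar 1, 2 and 3. The breeds did not overlap, though Rongchang 1 and wild boar 2 nearly touched. Its log2 fold change was −0.74 ± 0.24 (SE; limma, adjusted p = 0.789, unadjusted p = 0.0162), and 1.12% of all genes showed no overlap with Rongchang lower. HR, the hairless co-repressor and a direct target of the hormone receptors, was at 3.83, 3.84 and 2.45 FPKM in Rongchang 1, 2 and 3, against 4.87, 4.42 and 3.84 FPKM in wild boar 1, 2 and 3. The breeds did not overlap but touched at 3.84 FPKM in Rongchang 2 and wild boar 3 (log2 fold change −0.31). DBP, a transcription factor of the circadian clock, averaged 18.6 ± 1.35 FPKM in Rongchang and 15 ± 0.925 FPKM in wild boar, without overlap (0.29). No overlap with Rongchang higher was seen in 11.4% of all genes tested. The myelin gene MAG averaged 92.5 ± 17.4 FPKM in Rongchang and 70.6 ± 14.9 FPKM in wild boar, with overlap (0.39). KLF9, a transcription factor induced directly by the hormone and singled out after its values were seen, averaged 25.1 ± 4.98 FPKM in Rongchang and 25.7 ± 7.42 FPKM in wild boar (−0.01).

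Of 8 genes of the thyroid axis and serum carriers with a row, 4 were tested and 0 called. The iodide transporter SLC5A5 averaged 2.49 ± 0.567 FPKM in Rongchang and 1.65 ± 0.654 FPKM in wild boar (log2 fold change 0.41), and TRHDE, which degrades thyrotropin-releasing hormone, 7.03 ± 1.12 FPKM in Rongchang and 5.81 ± 1.89 FPKM in wild boar (0.26). The beta chain of thyrotropin, TSHB, was listed at 0 in all libraries but wild boar 2, and thyroglobulin, TG, was at most 0.247 FPKM. Selenoprotein synthesis genes, which the selenium-containing deiodinases need, had 5 tested of 6, all above 0 and 4 above the median gene, and 0 called. The elongation factor EEFSEC averaged 3.50 ± 0.682 FPKM in Rongchang and 2.53 ± 0.424 FPKM in wild boar (0.34), and SECISBP2 9.25 ± 0.88 FPKM in Rongchang and 8.05 ± 1.04 FPKM in wild boar (0.18). The selenoprotein receptor LRP8 averaged 12.3 ± 0.667 FPKM in Rongchang and 11 ± 1.7 FPKM in wild boar (0.16). GPX4, itself a selenoprotein, averaged 88.8 ± 47.9 FPKM in Rongchang and 64.5 ± 12.4 FPKM in wild boar (0.32).

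**Figure D4:**
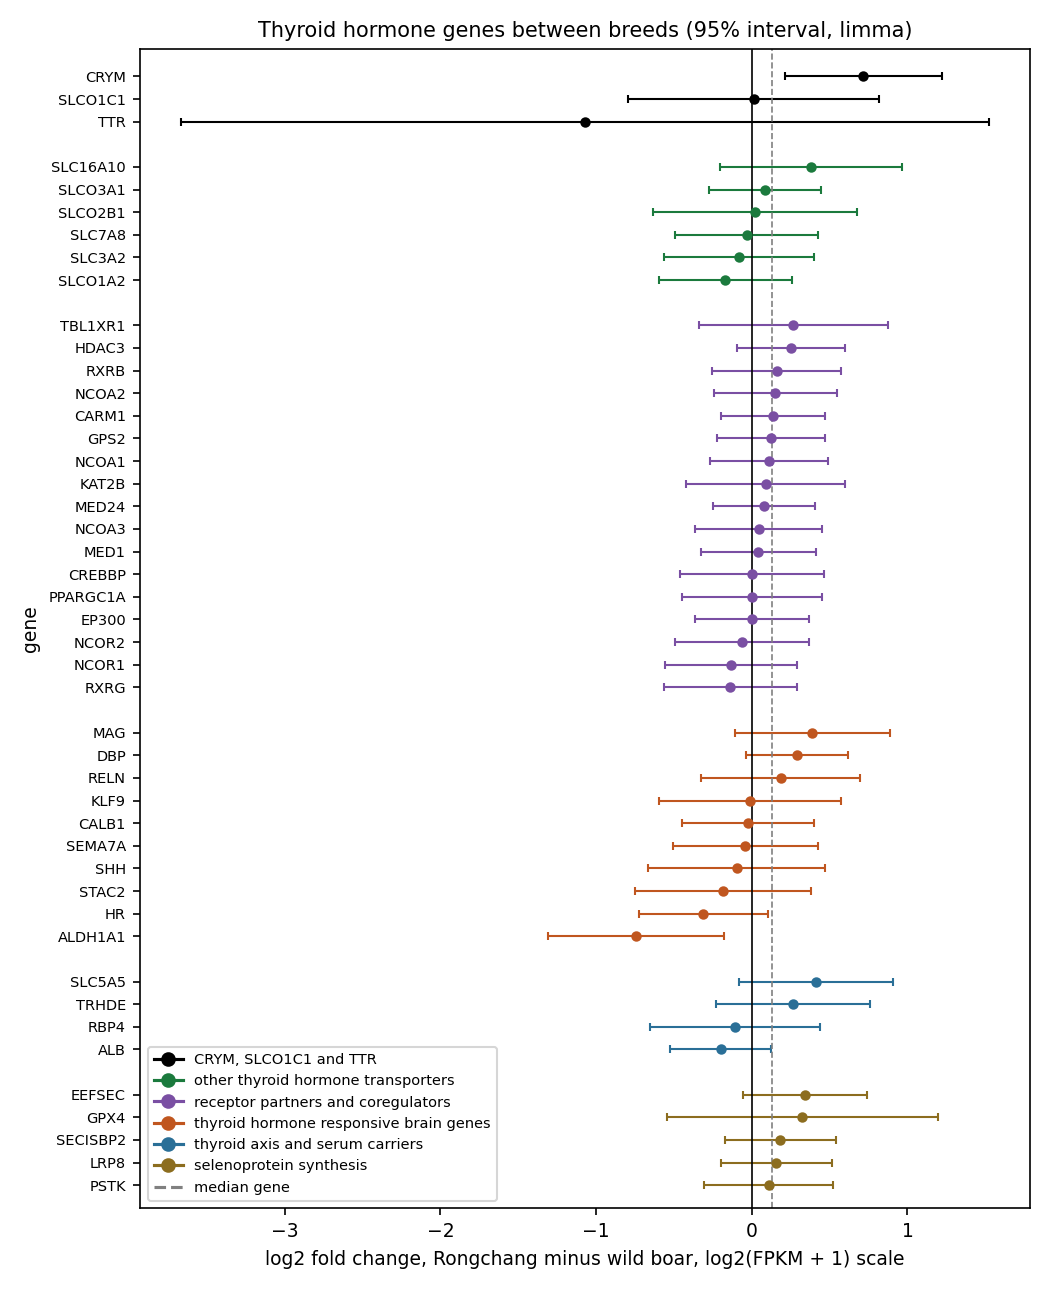
Log2 fold change, Rongchang minus wild boar on the log2(FPKM + 1) scale, of CRYM, SLCO1C1, TTR and 42 of the 43 other pathway genes tested, with 95% intervals from limma; the solid line is 0 and the dashed line the median gene at 0.13. Of the intervals drawn, only those of CRYM, from 0.21 to 1.22, and ALDH1A1, from −1.31 to −0.18, leave out 0, and neither gene passed after adjustment.

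Astrocytes also carry SLCO1C1 in rodents, and their markers were read for that reason. The 9 with a row summed to 2037, 1846 and 1928 FPKM in Rongchang 1, 2 and 3. In wild boar 1, 2 and 3 the sums were 1965, 1601 and 1972 FPKM, lowest in wild boar 2 as for SLCO1C1. SLC1A3, named after its values were seen, was highest in the libraries numbered 1, at 366 FPKM in Rongchang 1 and 372 FPKM in wild boar 1. Between breeds, 6 of the 9 had a fold change above 0, with a median log2 fold change of 0.14. ALDH1L1, a folate enzyme, stood at 7.73, 6.78 and 7.61 FPKM in Rongchang 1, 2 and 3, against 5.62, 3.83 and 2.84 FPKM in wild boar 1, 2 and 3, with no overlap (0.75; limma, adjusted p = 0.766). CHRDL1 did not overlap either, at 24.9 to 25.6 FPKM in Rongchang and 17.3 to 21.1 FPKM in wild boar (0.38). Such a separation with Rongchang higher was seen in 11.4% of all genes tested. The 3 markers below 0 were GFAP (−0.11), SLC1A3 (−0.03) and SOX9 (−0.23). Oligodendrocyte markers, 6 tested, had a median of 0.22, with 0 called.

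**Figure D5:**
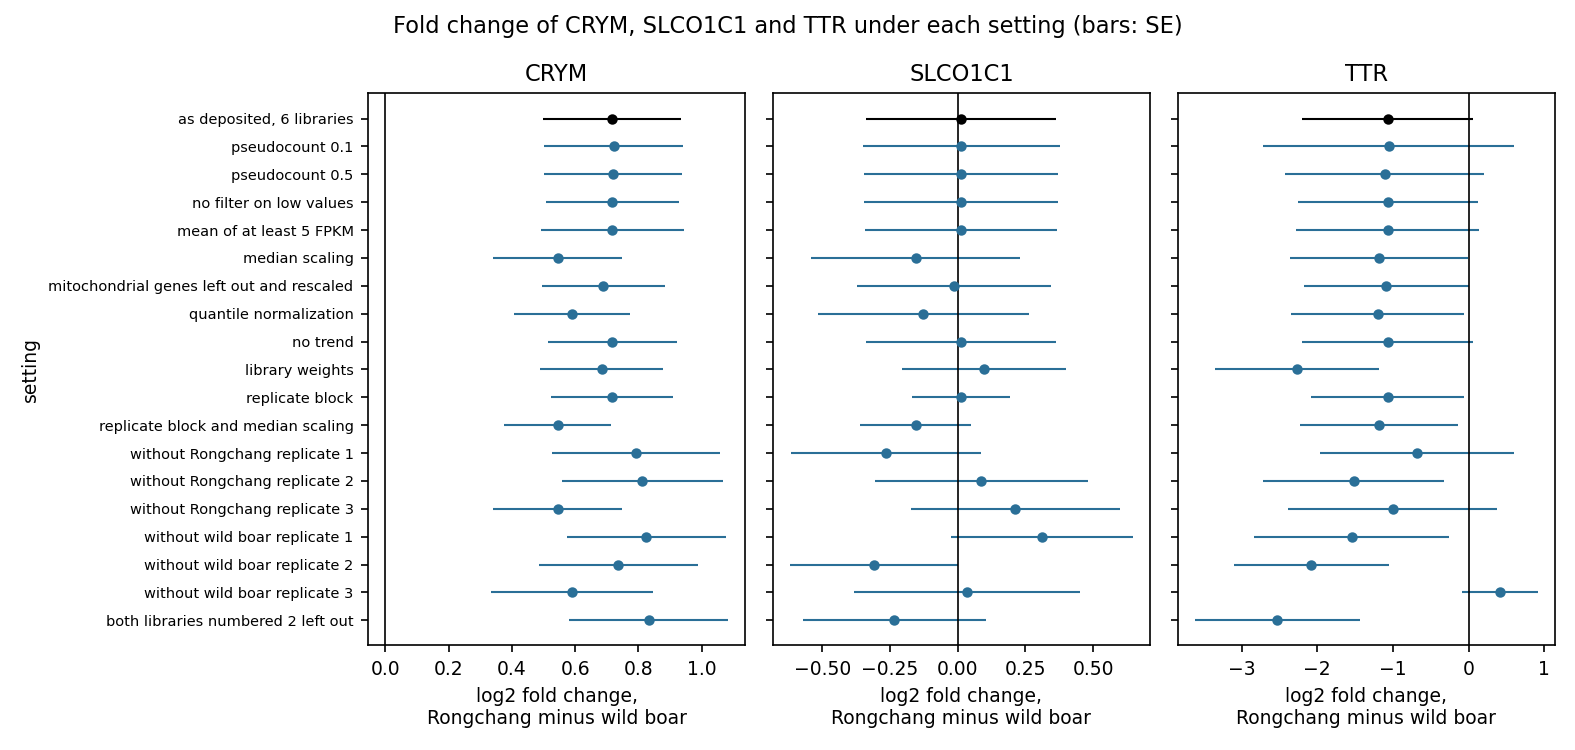
Log2 fold change, Rongchang minus wild boar, with its SE, for CRYM, SLCO1C1 and TTR under the processing used and 18 alternatives. CRYM stays above 0 throughout, from 0.54 to 0.83, SLCO1C1 lies on both sides of 0, and TTR lies above 0 only without wild boar replicate 3.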

How the data were processed

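The authors deposited 1 FPKM value per gene and library. The table's header names no unit, and FPKM was judged from the values and from the tools the submitters' processing notes name: Cuffdiff, Cufflinks 2.2.1 and TopHat2 2.0.11. Per the labels' protocols, poly(A) RNA was made into dUTP-stranded libraries and read as 100-bp pairs. The build, the annotation and the strand setting were not given in the sources used here. Coordinates are therefore left out, and genes with an antisense partner are uncertain. Depth is unknown, so no counting interval is given. A table of identifiers and symbols matched 10937 of 18225 genes (60.0%).

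All 6 libraries entered limma 3.58.1 (R 4.3.3), run on log2 values of the deposited FPKM + 1 with a mean-variance trend. Genes had to reach 1 FPKM or more in 3 libraries or more, and p-values were adjusted over the 13152 that did by the Benjamini-Hochberg method. The genes, lists and tests were chosen with earlier results of these data known. Named from each pathway list were up to 4 genes with the lowest p and the most abundant one. Markers and other genes named beside a result of CRYM, SLCO1C1 or TTR were picked after their values were seen. Planned results for DIO2, DIO3, THRA and THRB could not be computed. A few genes of the lists are counted but not reported here by name. Alternatives covered pseudocount, filter, scaling, trend, library weights, the animal number as a block and left-out libraries.

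Animals are numbered 1 to 3 in both breeds. After removal of breed means, libraries with the same number correlated at 0.28 to 0.59 and the others at −0.45 to 0.12. Every same-number value exceeded the 0.1 required, but so did that of Rongchang 1 with wild boar 3 (0.12). The numbers may pair the animals, which rests on these values and on no label. All errors, intervals and p-values printed come from the fit without pairs, unless the block is named. On 20 simulated tables of 13152 genes for this comparison, 48.9% of 2-fold and 88.2% of 4-fold changes were recovered. Each table had 200 changed genes above a minimum level, with independent normal noise, and 6.25 false calls on average. The data held 1 call, so the adjustment was stricter there, and recovery of a single gene such as CRYM may be lower.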

Additional observations from a re-analysis of the deposited data

How the results depend on the processing

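CRYM was higher in Rongchang under all 18 alternatives, from 0.54 to 0.83 log2 units, with adjusted p from 0.232 to 1. Leaving out 1 library gave 0.54 to 0.82 for CRYM, −2.08 to 0.41 for TTR and −0.31 to 0.31 for SLCO1C1. For CRYM the sign could not change there, since the breeds did not overlap. TTR turned round only without wild boar 3 (0.41). SLCO1C1 turned round with median scaling (−0.16), alone or with the block (−0.16), with mitochondrial genes left out (−0.014), with quantile normalization (−0.13), without Rongchang 1 (−0.26) or wild boar 2 (−0.31), and without both libraries numbered 2 (−0.23). The cause was not tested. With the animal number as a block CRYM had an adjusted p of 0.232, SLCO1C1 of 0.975 and TTR of 0.578, so the block changed no call. Of the levels relative to markers, that of CRYM stayed above 0 in all 11 alternatives run (0.46 to 0.87). That of TTR was −2.51 to 0.45, above 0 only without wild boar 3, and that of SLCO1C1 was −0.12 to 0.38, below 0 without Rongchang 1 (−0.029), without wild boar 2 (−0.12) and without both libraries numbered 2 (−0.077). Of all genes, 1 was called higher in Rongchang and 0 lower. The count of higher genes was 3 with a pseudocount of 0.1, 0 with a mean of at least 5 FPKM, 3 without both libraries numbered 2, and 1 to 4 with 1 library left out, where 0 to 1 were lower. Depth is unknown, so its effect on low genes such as TTR in 5 of the libraries could not be measured.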
